A study of Homo sapiens with 12 samples.

Results

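The feedback genes of the ERK pathway were examined in HEYA8, an established line of ovarian cancer cells. They were the 10 genes DUSP4, DUSP5, DUSP6, SPRY2, SPRY4, SPRED1, SPRED2, ETV4, ETV5 and PHLDA1, chosen by symbol from the 56269 genes of the count table. All 10 were found there, and all 10 were among the 16069 genes that passed the filter on low counts. No value of these libraries entered the choice rule, but the genes were chosen with earlier results of these data known.

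The study compared gene expression by RNA-seq in cells at steady state. It sought a mechanism by which the glycosaminoglycan (GAG) chains of betaglycan (BG) promote release of its outer domain from the cell. BG is the TGF-β co-receptor encoded by TGFBR3. The 4 groups of 3 libraries were control vector cells, which express no BG construct, ∆GAG-BG cells, which express human BG with both of its GAG attachment serines changed to alanine, S534A cells and S545A cells. In the last 2 groups only the named serine is alanine, so that a single attachment site is left, and the study calls the products CS-BG and HS-BG for the chondroitin sulfate or heparan sulfate chains that predominate on them. All cells were kept in RPMI-1640 with serum and no added ligand, and they also carry their own TGFBR3 gene. Each construct was brought in with a lentiviral backbone that also encodes dTomato, and infected cells were sorted on dTomato, so each group is 1 sorted population as far as stated and an effect of the construct cannot be told apart from a property of its population. The series describes the libraries as biological replicates, but nothing used here ties them to separate infections, so p-values measure the spread between these libraries.

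Growth factor receptors pass their signal through RAS, RAF and MEK to the kinase ERK, which switches on genes whose products then quench the same pathway. The phosphatases DUSP4, DUSP5 and DUSP6 remove the activating phosphates of ERK, the Sprouty and Spred proteins restrain the steps at and above RAF, ETV4 and ETV5 are ETS transcription factors whose genes follow ERK activity, and PHLDA1 is a further gene that follows it. The mRNA levels of such genes are often used as a readout of the pathway, and heparan sulfate chains are known to bind fibroblast growth factors, which act through it.

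SPRY2 and SPRY4 carried the lowest unadjusted p-values among the 10 genes, and SPRED2 varied most closely with ETV5, so reference sequence before the start sites of these 3 genes is shown. The stretches are from RefSeq on GRCh38.p14, read 5′ to 3′ on the minus strand, where all 3 genes lie. They hold no annotated exon of their own gene, and exons of other genes were not checked. SPRY2 has 3 listed start sites and SPRED2 has 2, and only the stretch before the most upstream is shown. The SPRY2 stretch (chr13:80341127-80341376) ends at the start site, the SPRED2 stretch (chr2:65432638-65432849) 38 bases before it and the SPRY4 stretch (chr5:142324418-142324497) 170 bases before it, where exon sequence of another transcript begins. The capitals mark GGAA, the core that ETS factors bind, or its reverse complement TTCC.
SPRY2: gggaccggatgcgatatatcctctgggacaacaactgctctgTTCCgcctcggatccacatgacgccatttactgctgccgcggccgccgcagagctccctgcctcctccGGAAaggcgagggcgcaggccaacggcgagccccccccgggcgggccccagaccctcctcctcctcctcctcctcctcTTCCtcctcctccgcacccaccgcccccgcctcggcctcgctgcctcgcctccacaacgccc
SPRED2: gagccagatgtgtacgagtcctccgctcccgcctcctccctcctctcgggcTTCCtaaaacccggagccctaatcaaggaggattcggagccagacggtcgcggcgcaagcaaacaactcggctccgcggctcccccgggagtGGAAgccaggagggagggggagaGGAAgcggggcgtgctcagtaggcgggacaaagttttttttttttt
SPRY4: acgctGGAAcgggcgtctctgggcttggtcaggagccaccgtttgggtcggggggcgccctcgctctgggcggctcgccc

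The core occurred 3 times in the SPRY2 stretch, 3 times in that of SPRED2 and once in that of SPRY4. Both strands were searched in 35116 windows of 250 bases before RefSeq start sites, of which 92.74% held at least 1 core, with a median of 3. The 9 windows of the 6 feedback genes with an entry (DUSP6, SPRY2, SPRY4, SPRED1, SPRED2 and PHLDA1) held 2 to 6 cores, within the range of 0 to 6 between the 5th and 95th percentiles of all windows. Of these 9 windows 5 lay wholly or partly in annotated exons of their own gene. The only windows of DUSP6, SPRED1 and PHLDA1 lay wholly in such exons. The longer ETS site CCGGAAG (8.517% of all windows), which contains the core, the AP-1 site TGANTCA (6.573%) and the CRE site TGACGTCA (1.646%) were in none of these 9 windows. These are matches of letters and not sites shown to be bound.

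Total counts were 16410001 to 29504297 per library. Levels are given as CPM, counts scaled to a common library total after TMM normalization. TGFBR3 was 413 to 574 CPM in the 6 S534A and S545A libraries. It was 259.6, 20.3 and 21.4 CPM in the libraries labelled ∆GAG-BG (replicates 1, 2 and 3) and 15.9, 259 and 259 CPM in those labelled control vector. The construct gene thus goes against the labels in replicates 2 and 3 of both groups, and for each comparison with one of these groups, values without those 4 libraries are also given. In S545A, ∆GAG-BG and control vector, replicates 2 and 3 were close to each other. Their counts gave a chi-square of 1.40 to 1.95 per degree of freedom, where the other pairs of one group gave 16.5 to 74.8, and still differed by more than sampling noise. A pair of single libraries also stood apart. ∆GAG-BG replicate 1 had 11864 CPM of HSPA5, a chaperone of the endoplasmic reticulum, against 287 to 3906 CPM elsewhere, and a summed level of 10 ER stress genes of 18079 CPM against 808 to 6421. S534A replicate 2 had the lowest value of both. The ovarian and epithelial markers PAX8 (193 to 295 CPM), KRT7, KRT8 and KRT18 were present in all libraries, while MUC16 and CDH1 had 0 counts in every library, EPCAM was at most 1.77 CPM and WT1 at most 8.38 CPM. The mesenchymal markers VIM, CDH2 and ZEB1 were present. Leukocyte (PTPRC, CD3E, CD14) and fibroblast (DCN, LUM, PDGFRA) markers had at most 4 counts in any library. In bulk RNA, fewer cells of a type and less RNA per cell cannot be told apart.

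All 10 genes were expressed in all 4 groups, and 9 of them lay at or above percentile 75.3 of the levels of all genes tested. Between genes, levels were compared only per length, as CPM per kb of exon. DUSP5 was highest, with a median of 84.5 CPM per kb over the 12 libraries (range 33.8 to 123), and no other gene's median lay within that range. SPRY2 (30.6), PHLDA1 (29.4), ETV4 (29.2) and ETV5 (28.4) followed with ranges that overlapped, so their order is not beyond their spread. SPRY4 (23.2) and SPRED2 (20.7) came next, then SPRED1 (14.3) and DUSP6 (12.3), again with overlapping ranges within each pair. DUSP4 was the lowest at 0.960 CPM per kb (range 0.705 to 1.21), from 89 to 238 counts per library. At 89 counts the counting error alone was 10.6%.

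**Figure D1:**
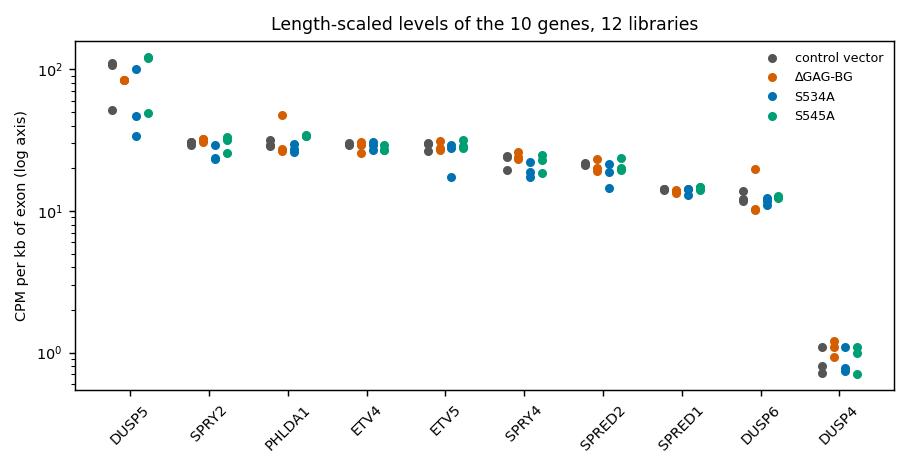
Level of the 10 ERK feedback genes in CPM per kb of exon (log axis), 1 point per library, coloured by group. DUSP5 has the widest range (33.8 to 123), ETV4 and SPRED1 lie within narrow bands, and DUSP4 lies more than 10-fold below the other 9 genes' medians.

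The genes also differed in how far they moved between libraries. The highest library was 3.65 times the lowest for DUSP5, 1.92 times for DUSP6, 1.83 times for ETV5 and 1.82 times for PHLDA1, and 1.19 times for ETV4 and 1.14 times for SPRED1. Set among the 1000 genes of nearest level, the SD of log2 CPM over the 12 libraries stood at percentile 99.2 for DUSP5 and at percentile 3.4 for SPRED1. The other 8 genes lay between percentile 21 (ETV4) and 87.1 (DUSP6).

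**Figure D2:**
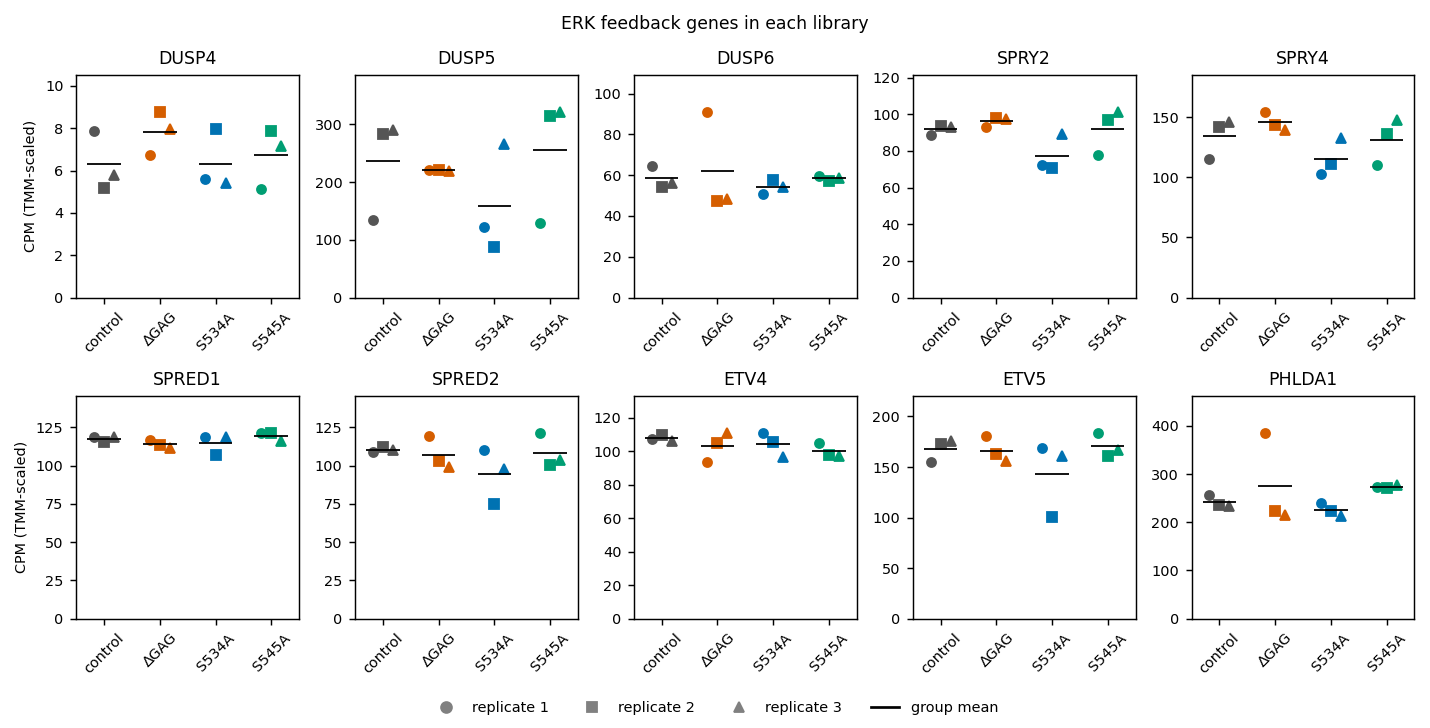
CPM of each gene in each library, by group; marker shape gives the replicate number and the bar the mean of 3 libraries, and every axis starts at 0. DUSP5 separates into 4 libraries at 88.4 to 135 CPM and 8 at 219 to 322 CPM, DUSP6 and PHLDA1 are highest in ∆GAG-BG replicate 1, and SPRED2 and ETV5 are lowest in S534A replicate 2.

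Among the phosphatases, DUSP5, which acts on ERK in the nucleus, varied most. Its level was 123, 88.4 and 265 CPM in S534A replicates 1, 2 and 3, and 129.5, 314 and 322 CPM in S545A. It was 222, 220.4 and 219 CPM in the libraries labelled ∆GAG-BG, and 135, 283 and 290.4 CPM under the control vector label. Low values thus occurred in S534A replicates 1 and 2 and in replicate 1 of S545A and of control vector, and all groups but ∆GAG-BG held both low and high libraries. The means were 159 ± 93.9 CPM (SD, n = 3) in S534A, 255 ± 109 in S545A, 220.3 ± 1.54 in ∆GAG-BG and 236 ± 87.9 in control vector. The summed level of the 3 endothelial markers was 171 to 327 CPM in the 4 libraries low in DUSP5 and 331 to 445 CPM in the other 8. That sum was nearly all CDH5 (168 to 431 CPM), while PECAM1 was at most 0.768 CPM and VWF 2.64 to 14.9 CPM. The part of these markers in the DUSP5 values was not tested.

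DUSP6, the cytoplasmic phosphatase of ERK, was 50.9, 57.6 and 54.3 CPM in S534A and 59.5, 57.2 and 58.6 CPM in S545A. It was 91.1, 47.3 and 48.2 CPM in the libraries labelled ∆GAG-BG, and 64.6, 54.3 and 56.4 CPM under the control vector label. Its highest and its lowest value were thus both in ∆GAG-BG, where the SD was 25.0 CPM against 1.12 to 5.42 in the other groups. An antisense gene with 3 to 10 counts covers 40.5% of the exon bases of DUSP6, and whether strand was used in counting is not stated. DUSP4, a nuclear phosphatase, was 5.12 to 8.78 CPM, and no group was separate from the others.

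SPRY2, a Sprouty inhibitor of receptor signaling, was 72.2, 70.8 and 89.1 CPM in S534A and 77.6, 96.9 and 101 CPM in S545A. It was 93.0, 97.9 and 97.2 CPM in the libraries labelled ∆GAG-BG and 88.9, 93.4 and 92.8 CPM in those labelled control vector. The S534A libraries were all below the ∆GAG-BG libraries, and S534A replicate 3 lay just above the lowest control vector library. Its relative SPRY4 was 102, 111 and 132 CPM in S534A, 110.1, 136 and 147 CPM in S545A, 154, 143 and 139 CPM in ∆GAG-BG and 115, 142 and 146 CPM in control vector. All 3 S534A libraries were again below all 3 ∆GAG-BG libraries, while S534A overlapped S545A and control vector. The mean of SPRY2 was 77.4 ± 10.2 CPM (SD, n = 3) in S534A, 91.9 ± 12.6 in S545A, 96.0 ± 2.65 in ∆GAG-BG and 91.7 ± 2.43 in control vector.

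SPRED1, which recruits the RAS inhibitor neurofibromin, was the steadiest of the 10 genes at 107 to 121 CPM. SPRED2, its relative, was 110.1, 74.8 and 97.6 CPM in S534A and 99.0 to 121 CPM in the other 9 libraries. The single low library was S534A replicate 2. The ETS factor ETV5 had the same low library, at 169, 101 and 161 CPM in S534A against 155 to 184 CPM in the other 9. ETV4 was 93.3 to 111 CPM over all libraries and did not show it, at 106 CPM in S534A replicate 2. About 1.89% of the exon bases of ETV4 are shared with DHX8 on the opposite strand and 2.83% of those of ETV5 with DGKG on the same strand.

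PHLDA1, which encodes a pleckstrin homology-like domain protein, was 239, 222 and 212 CPM in S534A and 273, 272 and 276 CPM in S545A. It was 385, 223 and 216 CPM in the libraries labelled ∆GAG-BG and 256, 235 and 233 CPM in those labelled control vector. Every S545A library was above every S534A and control vector library, and ∆GAG-BG replicate 1 was above them all.

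Across the 12 libraries the genes varied together in pairs and trios rather than as 1 group. The Pearson correlation of log2 CPM was 0.94 between SPRED2 and ETV5 (Spearman 0.87), 0.89 between DUSP6 and PHLDA1 (0.69), 0.88 between SPRY2 and SPRY4 (0.76), 0.88 between DUSP5 and SPRY2 (0.72) and 0.86 between DUSP5 and SPRY4 (0.72). These are descriptions over libraries that share their lines and in part are near repeats, and on the 9 points left when these close pairs of libraries were summed the same values were 0.95, 0.90, 0.87, 0.88 and 0.86. Single libraries carried part of them. Without the 2 libraries farthest from the median of the first gene, the values were 0.75, 0.60, 0.79, 0.73 and 0.79. For DUSP6 and PHLDA1 the value was 0.63 without ∆GAG-BG replicate 1, the library highest in ER stress genes. SPRED1 correlated with ETV5 at 0.77, and at 0.13 without S534A replicate 2 and ∆GAG-BG replicate 3, so that relation rested on those libraries. DUSP6 had correlations of -0.03 with DUSP5 and 0.02 with SPRY2.

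**Figure D3:**
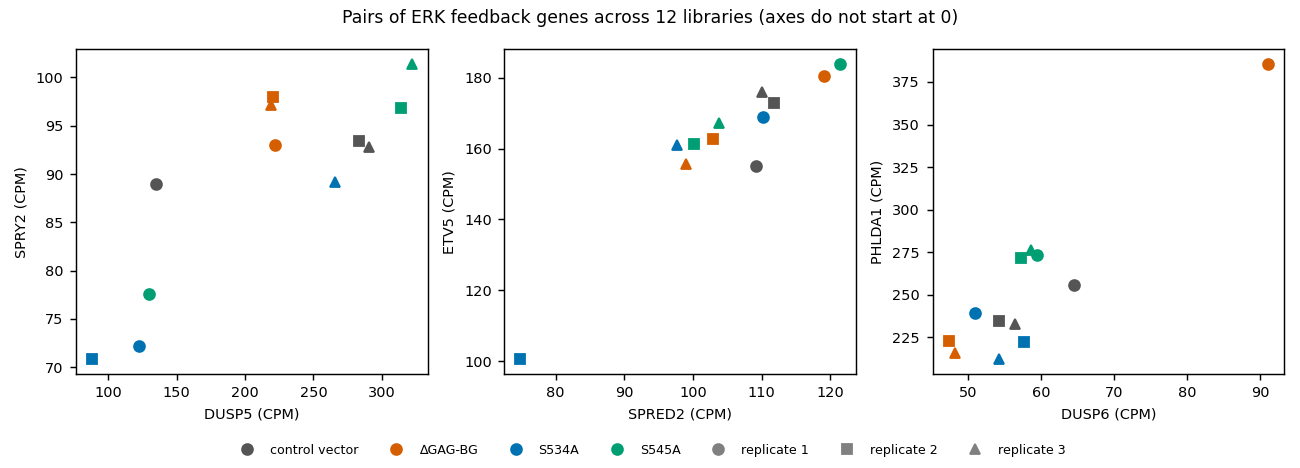
CPM of SPRY2 against DUSP5, ETV5 against SPRED2 and PHLDA1 against DUSP6, 1 point per library, coloured by group and shaped by replicate number; the axes do not start at 0. The second pair is drawn out by S534A replicate 2 (74.8 and 101 CPM) and the third by ∆GAG-BG replicate 1 (91.1 and 385 CPM).

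**Figure D4:**
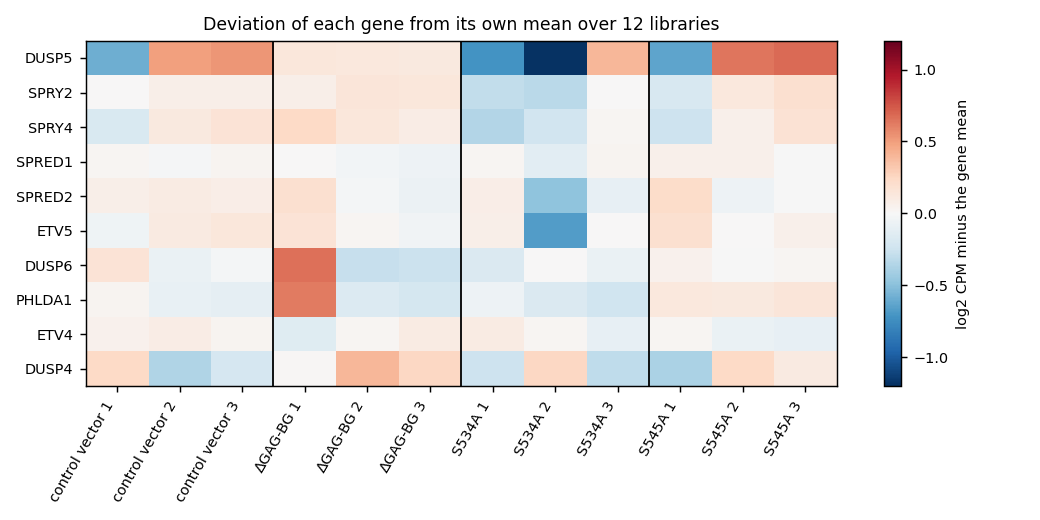
Log2 CPM of each gene in each library minus the gene's mean over the 12 libraries, with genes placed by set. DUSP5 is low in 4 libraries and most so in S534A replicate 2, SPRED2 and ETV5 are low in that library, and DUSP6 and PHLDA1 are high in ∆GAG-BG replicate 1.

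The S545A and S534A mutants were compared first, since neither is a group whose TGFBR3 goes against its labels. The spread behind the SEs and p-values was still estimated from all groups, ∆GAG-BG and control vector included. Of the 10 feedback genes 9 were higher and 1 was lower in S545A, with a median log2 fold change of 0.20 against -0.00024 over all genes tested, but SPRY2 alone reached an unadjusted p under 0.05. By the quasi-likelihood test of edgeR, none of the 10 and none of all genes (0%) passed an adjusted p of 0.05. Over all genes, 4.78% had an unadjusted p under 0.05 (768 genes), and DESeq2 and limma-voom each called 1 gene after adjustment. SPRY2 had a log2 fold change of 0.25 (SE 0.112, unadjusted p = 0.0455 and adjusted p = 0.70 by edgeR), and its groups overlapped. Its unadjusted p was 0.114 with only the 2 groups in the fit, 0.207 with the close libraries summed and 0.0546 with library size only, and it was above 0.05 in 8 of 16 alternatives. DUSP5 had the widest difference, 0.69 (SE 0.432, 95% interval -0.26 to 1.64), which did not exceed the spread between libraries (unadjusted p = 0.139 by edgeR). PHLDA1 (0.29, SE 0.177, unadjusted p = 0.134 by edgeR) was the 1 gene of the 10 whose groups did not overlap, with a two-sided exact permutation p of 0.1, the smallest that 3 against 3 libraries allow. Over all genes tested, 10.1% had groups that did not overlap. Its SE came from a spread shared with ∆GAG-BG, and with only the 2 groups in the fit the unadjusted p was 0.0131.

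The other 7 genes gave unadjusted p-values of 0.138 to 0.719 in S545A against S534A. The log2 fold changes were 0.25 for ETV5 (SE 0.159), 0.20 for SPRED2 (SE 0.132), 0.19 for SPRY4 (SE 0.132), 0.11 for DUSP6 (SE 0.203), 0.08 for DUSP4 (SE 0.219), 0.06 for SPRED1 (SE 0.071) and -0.06 for ETV4 (SE 0.084). The sign of DUSP4 is not settled by these libraries, as it was -0.04 without S545A replicate 2. For DUSP5 and SPRY4 the result depended on single libraries of the group's own spread. Without S534A replicate 3, which was high in both, DUSP5 was 1.28 (unadjusted p = 0.00712 by edgeR) and SPRY4 0.30 (0.0495). Without S545A replicate 1, which was low in both, they were 1.01 (0.0285) and 0.30 (0.0364). Both S545A libraries left in that fit were close to each other, and the p-values count them as separate libraries. With close libraries summed, the unadjusted p by edgeR was 0.362 for DUSP5 and 0.429 for SPRY4. ETV5 and SPRED2 passed 0.05 without S534A replicate 1, at 0.39 and 0.34, which left S534A replicate 2 as 1 of 2 libraries.

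S534A was next compared with the libraries labelled ∆GAG-BG. By label this sets a BG with a single chain site against a BG with none. TGFBR3 goes against that label in replicates 2 and 3 of ∆GAG-BG. SPRY2 and SPRY4 were lower in S534A, the other 8 feedback genes did not reach an unadjusted p of 0.05, and the median log2 fold change of the 10 was -0.25 against -0.0027 over all genes tested. By edgeR 0% of all genes, and none of the 10, had an adjusted p under 0.05, while 2.99% of all genes had an unadjusted p under 0.05 (481 genes). DESeq2 called 5 genes and limma-voom 1, none of them a feedback gene. SPRY2 had a log2 fold change of -0.31 (SE 0.112, unadjusted p = 0.0163 and adjusted p = 0.89 by edgeR) and SPRY4 of -0.34 (SE 0.132, unadjusted p = 0.0253 and adjusted p = 0.89 by edgeR). Both were lower in 3 of 3 S534A libraries than in any labelled ∆GAG-BG, at an exact permutation p of 0.1 each (two-sided), and the groups did not overlap for 5.66% of all genes. Replicates 2 and 3 of ∆GAG-BG were close to each other. With close libraries summed, the unadjusted p by edgeR was 0.0688 for SPRY2 and 0.0568 for SPRY4. With replicates 2 and 3 of ∆GAG-BG and control vector left out, which leaves ∆GAG-BG replicate 1 alone and assumes that it varies like the other groups, SPRY2 was -0.27 (unadjusted p = 0.199 by edgeR) and SPRY4 -0.42 (0.0615). In that fit DUSP6 and PHLDA1 were lower in S534A, at -0.75 and -0.78, on the value of that 1 library. It was also the highest in ER stress genes. These values are given without a p, since for these genes the ∆GAG-BG libraries varied more than those that gave the spread. The SD of DUSP6 was 25.0 CPM in ∆GAG-BG against 3.34 in S534A and 1.12 in S545A. That of PHLDA1 was 96.0 against 13.7 and 2.29.

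**Figure D5:**
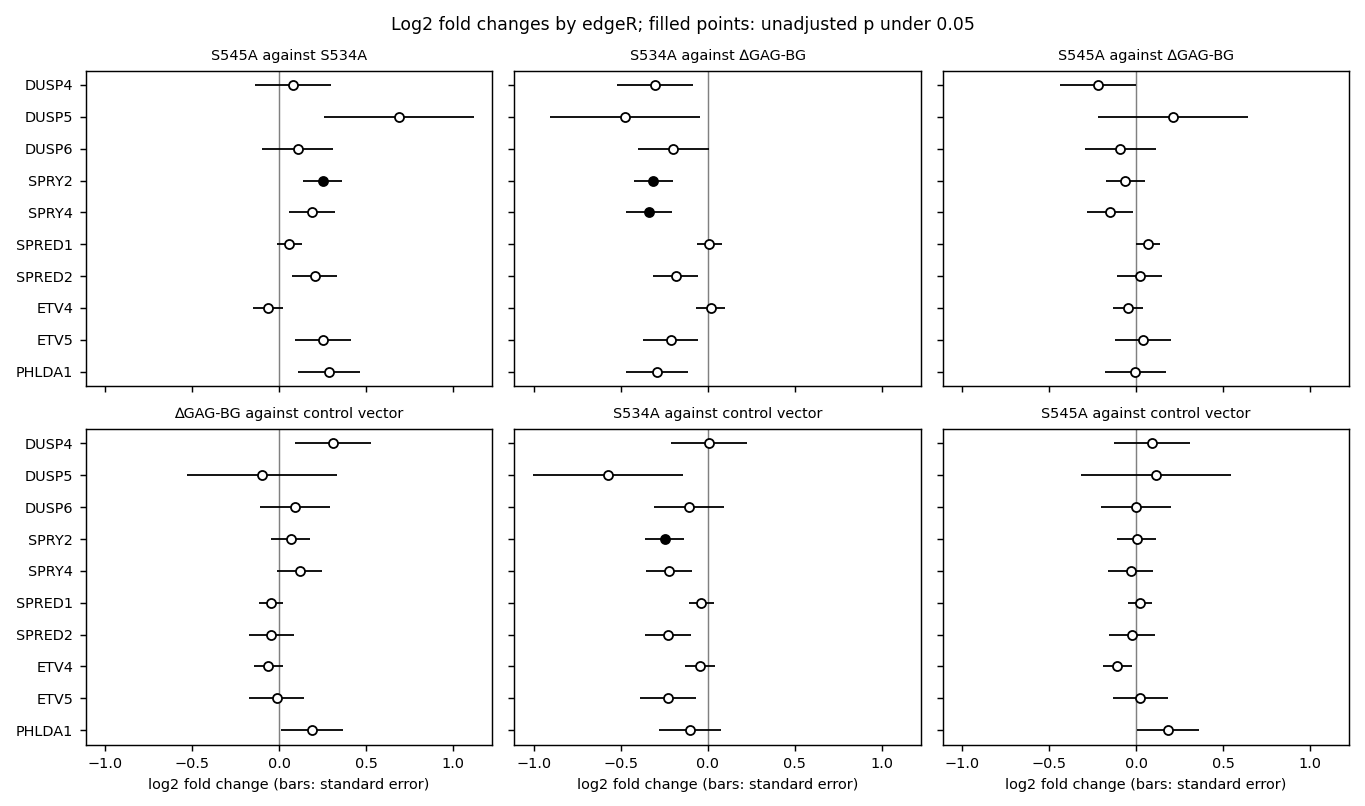
Log2 fold change of the 10 genes in the 6 comparisons by edgeR, with bars for the standard error and filled points at an unadjusted p under 0.05. SPRY2 is filled in 3 panels and SPRY4 in 1, all of them comparisons with S534A; no point passed adjustment over all genes.

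S534A was also compared with the libraries labelled control vector, a comparison that shares the S534A libraries with the first 2. Of the 10 genes 9 were lower, with a median log2 fold change of -0.16 against 0.0078 over all genes tested. SPRY2 alone reached an unadjusted p under 0.05, at a log2 fold change of -0.25 (SE 0.112, unadjusted p = 0.0480 and adjusted p = 0.87 by edgeR), and its groups overlapped. Of all genes 0% had an adjusted p under 0.05 by edgeR (2 by DESeq2 and 1 by limma-voom, none of the 10), 3.45% an unadjusted p under 0.05 (554 genes) and 7.65% groups that did not overlap, where the 10 feedback genes had none. DUSP5 had a log2 fold change of -0.57 with an interval of -1.52 to 0.37. Its direction turned with the libraries used, as it was -1.16 (unadjusted p = 0.0119 by edgeR) without S534A replicate 3 and 0.22 (0.753) against control vector replicate 1 alone, with replicates 2 and 3 of ∆GAG-BG and control vector left out. In that fit, whose spread comes from the S534A and S545A libraries, SPRY2 was -0.22 (unadjusted p = 0.283). The unadjusted p of SPRY2 was above 0.05 in 9 of 16 alternatives, among them only the 2 groups in the fit (0.0545) and the close libraries summed (0.131), with which no feedback gene was below 0.05. With the replicate number as a block SPRY2 (-0.25, 0.0238) and SPRED2 (-0.24, 0.0467) were below 0.05, but the libraries of these groups did not deviate together by number.

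S545A was compared with the libraries labelled ∆GAG-BG in the same way. No feedback gene reached an unadjusted p under 0.05, where 1.10% of all genes did (177 genes), and none had groups that did not overlap, where 5.05% of all genes did. Of all genes 0% passed adjustment by edgeR, DESeq2 or limma-voom. The log2 fold changes ran from -0.22 (DUSP4) to 0.21 (DUSP5), with 4 genes higher and 6 lower. SPRY2 was -0.06 with a 95% interval of -0.31 to 0.18 and SPRY4 -0.15 with an interval of -0.44 to 0.14. For DUSP6 and PHLDA1 the direction turned with the libraries used. Without ∆GAG-BG replicate 1 they were higher in S545A, at 0.30 (unadjusted p = 0.00889 by edgeR) and 0.33 (0.00238). Both ∆GAG-BG libraries left in that fit had TGFBR3 against their label. They were also close to each other, as was a pair of the S545A libraries, and the p-values count them as separate libraries. Against ∆GAG-BG replicate 1 alone, DUSP6 and PHLDA1 were lower in S545A, at -0.64 and -0.50. This second fit is given without a p, and its single ∆GAG-BG library is the one highest in ER stress genes.

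S545A against the libraries labelled control vector gave no feedback gene with an unadjusted p under 0.05, where 1.05% of all genes had one (168 genes), and 0% of all genes with an adjusted p under 0.05 by edgeR, DESeq2 or limma-voom. Groups did not overlap for 2 of the 10 genes and for 8.82% of all genes. PHLDA1 was higher, with a log2 fold change of 0.18 (SE 0.177, unadjusted p = 0.323 by edgeR), and ETV4 lower, with -0.11 (SE 0.084, unadjusted p = 0.225 by edgeR), each with a two-sided exact permutation p of 0.1. With only the 2 groups in the fit, PHLDA1 had an unadjusted p of 0.0205. The other 8 genes ran from -0.03 (SPRY4) to 0.11 (DUSP5). Against control vector replicate 1 alone, with the spread taken from the S534A and S545A libraries, PHLDA1 was 0.08 (unadjusted p = 0.573 by edgeR), ETV4 was -0.12 (0.385) and DUSP5 was 0.90 (0.229).

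The libraries labelled ∆GAG-BG and control vector differ in whether the construct encodes BG, and TGFBR3 goes against that label in 4 of the 6. No feedback gene had an unadjusted p under 0.05, where 0.871% of all genes did (140 genes), or groups that did not overlap, where 4.87% of all genes did, and 0% of all genes passed adjustment by edgeR, DESeq2 or limma-voom. With the 3 libraries of each group, 5 genes were higher and 5 lower, from -0.10 (DUSP5) to 0.31 (DUSP4). With 1 library of each, replicate 1, the values were 0.70 for DUSP5, 0.57 for PHLDA1 and 0.48 for DUSP6. They compare those libraries only and are given without a p, and ∆GAG-BG replicate 1 is the library highest in ER stress genes. DUSP5 thus turned from -0.10, and DUSP6 was lower in ∆GAG-BG without its replicate 1, at -0.30 (unadjusted p = 0.00833 by edgeR). Both ∆GAG-BG libraries left in that fit had TGFBR3 against their label. They were also close to each other, and the p counts them as separate libraries.

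The rest of the pathway was examined by lists of genes. No gene of these lists had an adjusted p under 0.05 in any of the 6 comparisons by edgeR. Of 18 genes of the RAS-ERK cascade, all tested, 1 reached an unadjusted p under 0.05, MAP2K1, which encodes the ERK kinase MEK1. It was 69.7, 103 and 61.8 CPM in S534A and 61.4, 53.3 and 55 CPM in S545A, with a log2 fold change of -0.47 in S545A against S534A (SE 0.166, unadjusted p = 0.0151 by edgeR). The groups did not overlap, though S534A replicate 3 and S545A replicate 1 nearly met, and S534A replicate 2 stood apart as the highest library. In that comparison 4.78% of all genes had an unadjusted p under 0.05, and 10.1% had groups that did not overlap.

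Of 10 other genes that follow ERK, all tested, 1 reached an unadjusted p under 0.05, the immediate early gene EGR1, in S545A against S534A (log2 fold change -2.98, SE 1.32, unadjusted p = 0.0442 by edgeR). The value was made by S534A replicate 2 at 16.3 CPM, since the other 5 libraries of this comparison had 0.364 to 1.16 CPM (two-sided exact permutation p = 0.7). ∆GAG-BG replicate 1 had 9.16 CPM of it. Of the 5 FGF receptor genes 3 were tested. FGFR1 was 65.2 to 104 CPM, and FGFR2 had 0 counts in every library, which allows up to 0.182 CPM in the shallowest library by counting error. FGFRL1, a receptor without a kinase domain, was lower in S545A than in S534A (log2 fold change -0.42, SE 0.162, unadjusted p = 0.0235 by edgeR) and higher in S534A than in ∆GAG-BG (0.36, SE 0.162, 0.0476). Of all genes 4.78% had an unadjusted p under 0.05 in S545A against S534A, the comparison of both EGR1 and FGFRL1. In S534A against ∆GAG-BG it was 2.99%.

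Of 7 other MAP kinase phosphatases 5 were tested and none reached an unadjusted p under 0.05 in any comparison. DUSP1 was 164 to 218 CPM in replicate 1 of all 4 groups and S534A replicate 2 and 328 to 435 CPM in the other 7 libraries, so its levels divided within the groups, as those of DUSP5 did in 4 of the same 5 libraries. Of 6 other members of the Sprouty, Spred, ETV and PHLDA families, all tested, SPRY3 alone reached it, higher in S534A than in control vector (log2 fold change 0.47, SE 0.196, unadjusted p = 0.0345 by edgeR), with 5.67 CPM in S534A replicate 2 and 2.83 to 3.95 CPM in the other 11 libraries. In that comparison 3.45% of all genes reached it. Of the 10 ER stress genes 5 (HSPA5, SDF2L1, HERPUD1, PDIA4 and DDIT3) were lower in S534A than in ∆GAG-BG at an unadjusted p under 0.05 by edgeR, with a median log2 fold change of the list of -1.40. Of all genes 2.99% had such a p in that comparison. The groups of each of these 5 genes overlapped. The summed level of the list was 18079 CPM in ∆GAG-BG replicate 1 and 808 CPM in S534A replicate 2. In ∆GAG-BG replicates 2 and 3 it was 2620 and 2543 CPM, below the 2670 and 3701 CPM of S534A replicates 1 and 3. The part of ER stress genes in the DUSP6 and PHLDA1 values was not tested.

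The genes most like DUSP6 in log2 CPM over the 12 libraries were MYRF (Pearson r = 0.95), IRF2BP2 (0.94), RPL3 (0.94), PSG5 (0.93) and MAP2K2 (0.93), with values of 0.92, 0.84, 0.81, 0.81 and 0.83 without ∆GAG-BG replicate 1. Those most like the mean of the 10 genes were TRAPPC11 (0.97), VASP (0.97), CAPG (0.97), TFE3 (0.96) and NPC1 (0.96). That mean was lowest in S534A replicate 2, at 0.29 below its average on the log2 scale, and highest in ∆GAG-BG replicate 1, at 0.20 above it.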

How the data were processed

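The authors prepared RNA libraries with an NEBNext Ultra II kit, trimmed reads with Trim Galore and counted them per gene with featureCounts; the deposited table holds raw counts, not normalized, for 12 libraries. The submitters' processing notes also name STAR 2.4, SAMtools 1.2 and the mouse builds mm10 and GRCm38, but the genes are human and their coordinates are those of GRCh38, since 33648 of 36113 symbols, and all 10 feedback genes, have the same coordinates in GENCODE release 29. Whether reads were counted by strand is not given in the sources used here. The 37 mitochondrial genes hold no counts.

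Here the deposited counts were filtered with filterByExpr at a minimum count of 10 and scaled by TMM, and edgeR 4.0.16 under R 4.3.3 was used for robust quasi-likelihood tests in 1 model of 4 groups with 8 residual degrees of freedom and Benjamini-Hochberg adjustment over 16069 genes. The biological coefficient of variation was 0.163. Single genes were also compared by two-sided exact permutation of 3 against 3 libraries, which cannot go below 0.1. A count of 0 allows up to 3 counts, or at most 0.182 CPM. That limit covers counting error only; intervals of fold changes are at 95%. The fits were also run on simulated counts of independent libraries, with the same coefficient of variation for every gene. No simulated library was close to another or stood apart, so that run does not test the fits on libraries like these.

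The feedback genes, lists and tests were chosen with earlier results of these data known. The rule for named genes took all 10 feedback genes, with full statistics in S545A against S534A and elsewhere for those with an unadjusted p under 0.05 or groups that did not overlap, up to 4 genes of each list by unadjusted p, and the 5 genes most correlated with DUSP6 and with the mean of the 10. Values of other genes or comparisons were named after they were seen. The third S545A library has a title that reads S545S and a genotype label that reads S545A, and was used as S545A. In S545A and control vector, libraries of the same number lay off their group means in the same direction (correlations 0.597, 0.305 and 0.291). Replicates 2 and 3 were close to each other in both groups, so a match of replicate 1 alone would give such values. Pairing by number is thus not shown, and the main tests were unpaired. In the other 5 comparisons not all 3 correlations were above 0.1. Alternatives were DESeq2 1.42.0, limma-voom (limma 3.58.1), RLE factors, library size only, no filter, at least 10 counts in every library, only the 2 groups compared, the replicate block, each library left out, close libraries summed, and replicates 2 and 3 of ∆GAG-BG and control vector left out.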

Additional observations from a re-analysis of the deposited data

How the results depend on the processing

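For single genes the threshold is an unadjusted p under 0.05, and a count within 1.5 times is taken as unchanged. SPRY2 kept its direction and its side of the threshold in 12 of 16 alternatives in S534A against ∆GAG-BG (-0.42 to -0.25), in 8 of 16 in S545A against S534A (0.17 to 0.36) and in 7 of 16 in S534A against control vector (-0.36 to -0.19), and SPRY4 in 11 of 16 in S534A against ∆GAG-BG (-0.44 to -0.26); none of these changed sign. Under the alternatives run, no feedback gene had an adjusted p below 0.05 in any of the 6 comparisons. DUSP4 in S545A against S534A changed sign with close libraries summed (-0.0021), without S534A replicate 3 (-0.013) and without S545A replicate 2, and ran from -0.042 to 0.29 with one library left out. The count of all genes with an adjusted p under 0.05, 0 by edgeR, became 1 in S545A against S534A with DESeq2, without a filter and by limma-voom; in S534A against ∆GAG-BG it became 5 with DESeq2, 1 without a filter, 1 by limma-voom and 9 with replicates 2 and 3 of ∆GAG-BG and control vector left out; in S534A against control vector 2, 1, 1 and 1 in the same order; and with those libraries left out 1 in S545A against control vector and 1 in the comparison of ∆GAG-BG with control vector. The count of feedback genes at an unadjusted p under 0.05 in S545A against S534A (1) became 0 with library size only and with close libraries summed, and 0 to 3 with one library left out. In S534A against ∆GAG-BG (2) it became 0 with close libraries summed and 1 to 3 with one library left out. In S534A against control vector (1) it became 0 with library size only, with only the 2 groups, with close libraries summed and with replicates 2 and 3 of ∆GAG-BG and control vector left out, 2 with the replicate block and 0 to 3 with one library left out. From 0, it became 2 with those replicates left out (0 to 2 with one library left out) in S545A against ∆GAG-BG, 2 (0 to 1) between ∆GAG-BG and control vector, and 1 with only the 2 groups in S545A against control vector. The count of feedback genes whose groups did not overlap became 2 with close libraries summed in S545A against S534A (from 1), 1 with library size only, no filter or close libraries summed in S545A against ∆GAG-BG (from 0), 1 with library size only and 2 with close libraries summed in ∆GAG-BG against control vector (from 0), and 1 with RLE factors, no filter or close libraries summed in S534A against control vector (from 0). With one library left out, which leaves 2 against 3, it ran from 2 to 4 in S545A against S534A, 2 to 4 in S534A against ∆GAG-BG, 0 to 5 in S545A against ∆GAG-BG, 0 to 5 in ∆GAG-BG against control vector, 0 to 4 in S534A against control vector and 2 to 5 in S545A against control vector. The replicate block changed no other count of feedback genes, S545A against control vector included. Counts given with replicates 2 and 3 of ∆GAG-BG and control vector left out rest on 1 library of each of those groups. Depth limits DUSP4 most, at 89 counts in its lowest library; for the other 9 genes counting error was at most 3.34%.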
